A study of Mus musculus domesticus with 6 samples.

Results

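The DNA replication and S phase genes are a list of 45 genes whose proteins mark the origins of replication, open the double helix, copy the strands and supply or time the process. They were chosen by symbol, and all 45 were found in the deposited tables, among 55359 entries. All 45 also passed the filter on low counts, which left 13117 genes for testing. The RNA came from BFU-E, the burst-forming progenitors committed to the red cell lineage, sorted from mouse fetal livers at E14.5. There were 3 Exosc3 fl/fl Cre+ libraries and 3 Exosc3 fl/fl Cre- libraries. Both groups were homozygous for a floxed Exosc3 allele, and in Cre+ animals Vav1-Cre, active in blood cells, recombines it. Exosc3 belongs to the RNA exosome, which trims and degrades RNA from the 3′ end. The sort took lineage-negative, Kit-positive, GFP-positive cells with low CD24 and CD71, and the design text counts 2 samples from each of 3 litters. The labels do not say whether a library is 1 embryo or a pool, so the p-values measure the spread between these samples.

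Replication is prepared in G1, when the origin recognition complex, Cdc6 and Cdt1 load the ring-shaped Mcm helicase on DNA. In S phase Cdc45 and the GINS complex join the ring and turn it into an active helicase, and polymerases held by the sliding clamp copy the exposed strands. Most of these genes are transcribed as targets of E2F factors when a cell commits to division. BFU-E of the fetal liver are dividing progenitors that can self-renew.

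The libraries held between 89629949 and 124931215 expected counts. Exosc3 measured 26.8, 22.1 and 30.2 CPM (counts per 1000000, on library sizes scaled by TMM) in Cre+ replicates 1, 2 and 3, against 51.9, 44.3 and 48.0 CPM in Cre- replicates 1, 2 and 3. The groups did not overlap, with a log2 fold change of -0.87 ± 0.22 (SE, the standard error) (edgeR adjusted p = 0.259). The labels do not give the deleted exons, and the counts cover the whole gene, so this is only a partial check of the deletion. Reads of the reporter eGFP stood at 104 to 109 TPM (the length-scaled share of transcripts) in Cre+ and at 0 to 4.69 TPM in Cre- libraries, and how the GFP gate was applied to Cre- livers is not given in the sources used here. Of 20 erythroid markers none was at 0 in all 6 libraries, while 6 of 9 hepatocyte markers were. Summed neutrophil and monocyte markers (13 genes, Ly6c2 at 0 throughout) spanned 232 to 534 CPM in Cre+ and 592 to 1549 CPM in Cre- libraries. Summed lymphoid markers (11 genes, Dntt and Cd3e at 0 throughout) spanned 10.3 to 33.0 CPM in Cre+ and 85.5 to 226 CPM in Cre- libraries. Summed erythroid markers spanned 1999 to 2675 CPM in Cre+ and 1537 to 2038 CPM in Cre- libraries. The part of these other cells in the values below was not tested. In such bulk samples fewer cells in S phase and less RNA per cell cannot be told apart.

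Replication genes were measured at graded levels in both groups. By mean TPM, which is scaled for transcript length, the members ran from 12.6 TPM for Gins3 to 329 TPM for Lig1, the ligase that seals lagging-strand fragments, with a median of 78.0 TPM. Lig1 measured 279, 295 and 339 TPM in the Cre+ libraries, against 302, 379 and 383 TPM in the Cre- libraries. The next 3 were Mcm7 at a mean of 279 TPM over all libraries, Mcm3 at 266 TPM and Mcm2 at 234 TPM, whose ranges over libraries overlap. The median was 221 TPM in the Mcm ring, 52.2 TPM in the origin licensing group and 32.1 TPM in the helicase activation group. The lowest members after Gins3 were Ccne2, which encodes cyclin E2, at 13.5 TPM and Orc1 at 14.6 TPM, and these 3 overlapped one another.

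**Figure D1:**
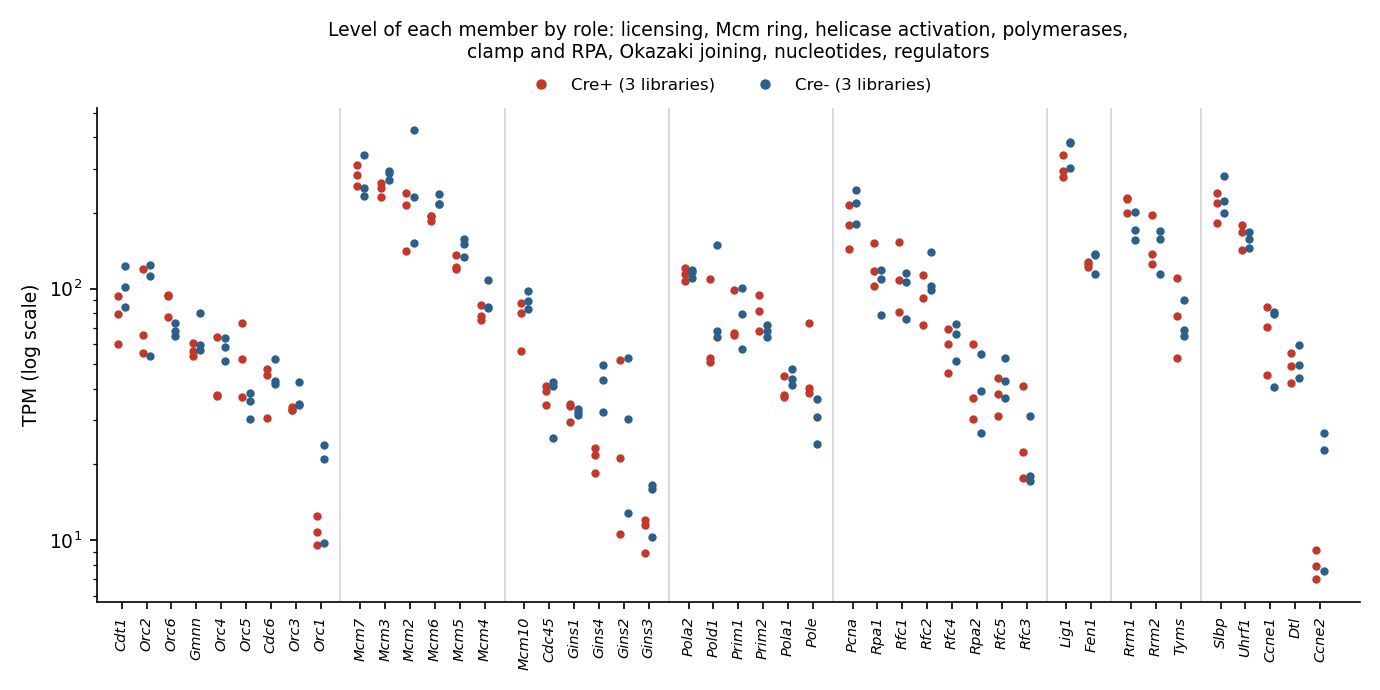
TPM on a log axis for the 45 members, ordered by mean level within each of 8 roles, with 3 Cre+ libraries in red to the left and 3 Cre- libraries in blue to the right of each gene. Lig1, Mcm7 and Mcm3 have the highest and Gins3, Ccne2 and Orc1 the lowest mean TPM, and for most genes the red and blue points overlap.

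No member was called between the genotypes. At an adjusted p under 0.05 (edgeR's quasi-likelihood test, adjusted over all tested genes) 0 of 45 were higher and 0 were lower in Cre+ cells, beside 0.122% of all tested genes, which were 16 genes, all higher. At an unadjusted p under 0.05 there were 2 members, Orc6 higher (beside 4.05% of all tested genes) and Gins4 lower (beside 4.19%, and 8.23% in either direction). By limma-voom 0 members were called, beside 0.152%, and with only genes of a mean of at least 1000 counts tested (edgeR) again 0, beside 0.696% higher, 0.312% lower and 1.01% in either direction. The adjusted p-values of the members lay between 0.294 and 1. The median log2 fold change was -0.02 over the members, of which 18 lay above and 27 below 0, and -0.01 over all tested genes.

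In counts not scaled by transcript length, the data bound most of these differences closely. The 95% interval of the fold change excluded both a doubling and a halving for 41 of 45 members (91.1%), beside 42% of all tested genes. The 4 exceptions were Gins1, Gins3, Gins4 and Ccne2. For 24 members the interval stayed within 0.5 on the log2 scale either way. With effective length offsets (counts scaled by transcript length) some standard errors rose, as for Mcm2 (0.0926 to 0.355), Orc2 (0.142 to 0.373) and Gins2 (0.269 to 0.652). That of Orc4 fell from 0.354 to 0.297. Intervals under these offsets were not computed, so the bounds hold for the unscaled counts only. The median within-group SD of log2 CPM was 0.173 over the members and 0.35 over the 10685 tested genes with a count in every library. Deeper coverage went with a narrower spread, with a Spearman correlation of -0.637 between mean count and SD across the 45 members, given as a description since the genes share the same 6 libraries. Mean counts of the members ran from 1893 for Rfc3 to 68744 for Mcm3. All members thus had a mean of at least 1000 counts. Only 8338 genes reached that mean, fewer than the 13117 tested, so the shares of 91.1% and 42% compare genes of unlike depth. Over all tested genes the libraries correlated at 0.78 to 0.832 in log2 CPM.

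**Figure D2:**
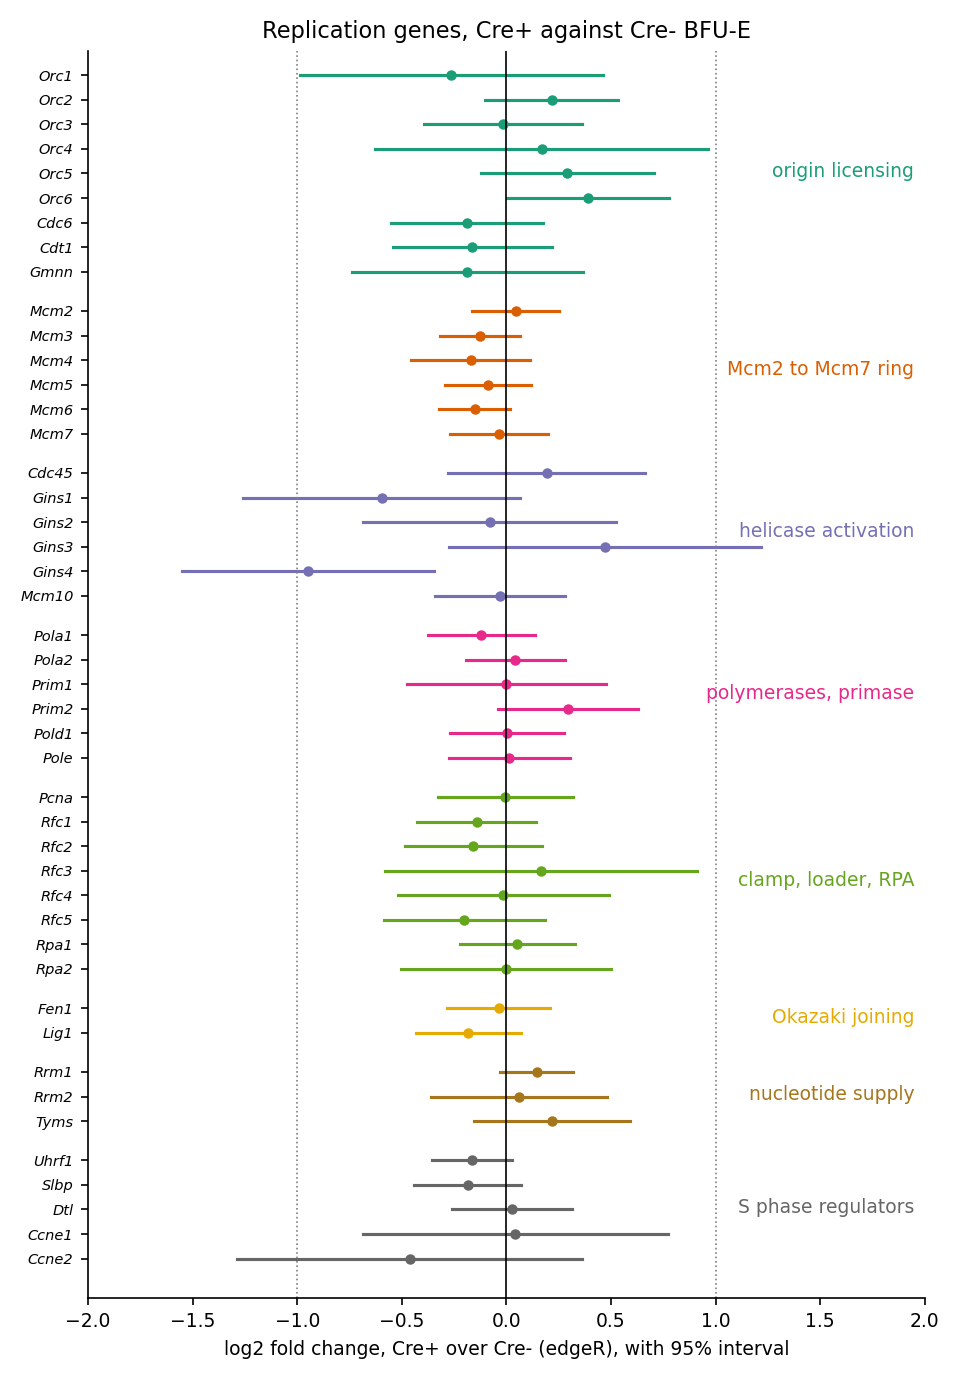
The log2 fold change of each member, Cre+ over Cre-, from edgeR (points) with its 95% interval (bars), grouped by role, with dotted lines at a halving and a doubling. Intervals of 43 members cross 0, and those of Orc6 and Gins4 do not.

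Origin licensing held 9 members, of which 0 passed the test and 1, Orc6, had groups that did not overlap in CPM. Orc6, the smallest subunit of the origin recognition complex (ENSMUSG00000031697), measured 60.6, 80.9 and 72.2 CPM in Cre+ cells, against 51.5, 52.5 and 59.0 CPM in Cre- cells. Every Cre+ library was thus above every Cre- library, by a narrow margin. The log2 fold change was 0.39 ± 0.17 (SE) (edgeR adjusted p = 0.604), and in the GENCODE M21 annotation exons of Orc6 share 171 bases with Vps35 on the opposite strand. Cdt1, the loading factor that opens the way for the Mcm ring, had the highest mean TPM of the group, 77.6 ± 16.7 TPM in Cre+ and 103 ± 19.5 TPM in Cre- cells (SD, n = 3 each). It measured 157, 127 and 100.3 CPM in Cre+ cells, against 133, 162 and 135 CPM in Cre- cells, so the groups overlapped. The log2 fold change of Cdt1 was -0.16 ± 0.17 (SE) (edgeR adjusted p = 0.951). Its inhibitor geminin, encoded by Gmnn, stood at 29.9, 30.4 and 34.5 CPM in Cre+ cells, against 30.9, 45.9 and 31.1 CPM in Cre- cells. Cdc6, the ATPase that works with Cdt1, had a log2 fold change of -0.19 ± 0.16 (SE). The other subunits, Orc1 to Orc5, had log2 fold changes between -0.26 for Orc1 and 0.29 for Orc5, and none passed. With effective length offsets the range widened to -0.71 for Orc1 and 0.67 for Orc5. Under the same offsets Orc3 had -0.14, and Orc2 and Orc4 turned from 0.22 and 0.17 to -0.24 and -0.29. Leaving out each library in turn gave -0.36 to 0.40 for Orc4.

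The 6 subunits of the Mcm ring form the core of the replicative helicase. In counts not scaled by length their intervals were narrow, all within 0.5 on the log2 scale. No subunit passed, and 5 of 6 had a negative log2 fold change. With effective length offsets it was again 5 of 6, though Mcm2 turned to -0.42 ± 0.355 (SE) and Mcm7 to 0.07. Mcm6 (ENSMUSG00000026355) had the smallest p of the ring, at 465, 437 and 444 CPM in Cre+ cells, against 488, 507 and 498 CPM in Cre- cells. Its groups did not overlap, and the ratio of mean CPM was 0.901. The log2 fold change of Mcm6 was -0.15 ± 0.08 (SE), with a 95% interval of -0.32 to 0.02 (edgeR adjusted p = 0.695). Mcm7, the subunit with the highest mean TPM of the ring, had 335, 407 and 351 CPM in Cre+ cells, against 340, 397 and 384 CPM in Cre- cells. These groups overlapped almost wholly, with a log2 fold change of -0.04 ± 0.10 (SE) (edgeR adjusted p = 0.999). Mcm2 was the 1 subunit with a positive value, 0.05 ± 0.09 (SE). Summed over the 6 subunits, a sum chosen after its values were seen, the ring had 2330, 2346 and 2200 CPM in Cre+ cells, against 2390, 2555 and 2382 CPM in Cre- cells. The sums did not overlap, and the ratio of their means was 0.938. The exact permutation p over libraries was 0.1, the smallest that 3 against 3 can give. For a sum chosen in this way it is no test of the ring. Groups did not overlap for 15.2% of single tested genes, and no such share was taken for sums. The sum above is in CPM, without scaling by length, and added up in TPM the groups of the ring overlapped.

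**Figure D3:**
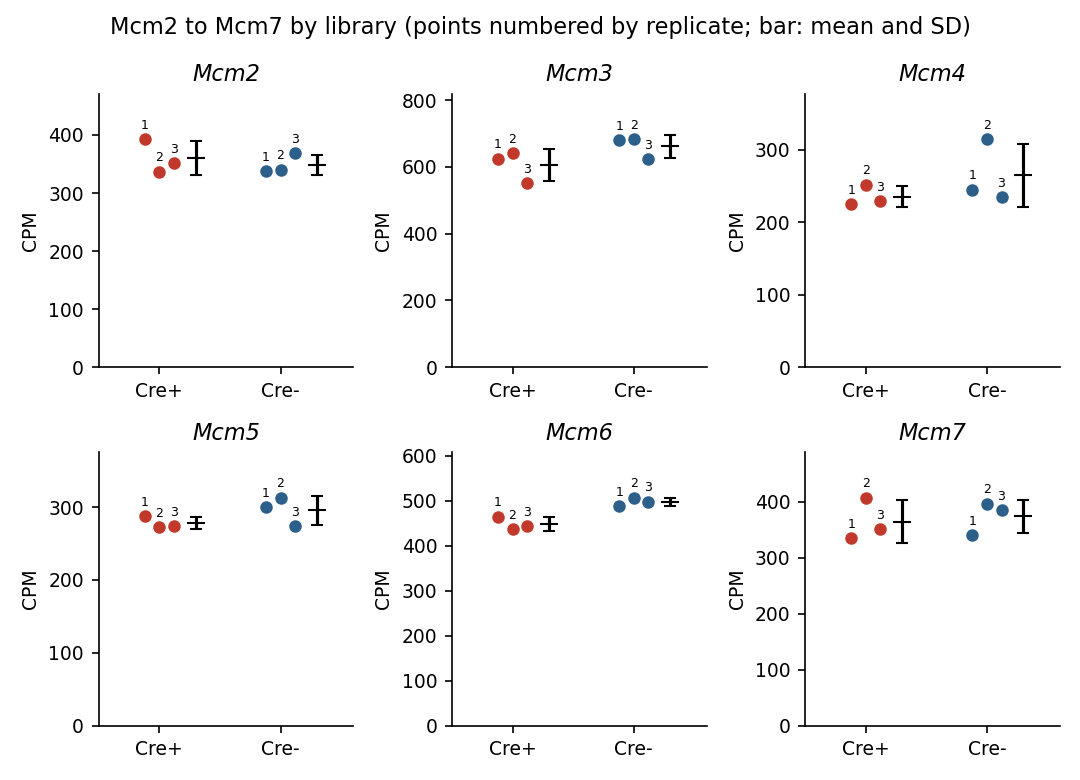
CPM of Mcm2 to Mcm7 in each library (points numbered by replicate, Cre+ red at the left and Cre- blue at the right of each panel) with the mean and SD of 3 libraries as a bar. The axes start at 0, and of the 6 genes Mcm6 is the one whose groups do not overlap.

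Helicase activation held the widest differences, and they lay in the GINS complex, the 4-subunit complex that joins Cdc45 and the Mcm ring. Gins4 (ENSMUSG00000031546) measured 17.3, 19.9 and 21.2 CPM in Cre+ cells, against 39.2, 45.3 and 28.3 CPM in Cre- cells. All Cre+ libraries were below all Cre- libraries, and Cre- replicate 3 lay nearest to them. The mean was 19.5 ± 1.97 CPM in Cre+ and 37.6 ± 8.60 CPM in Cre- cells (SD, n = 3 each), a ratio of 0.518. The log2 fold change was -0.95 ± 0.27 (SE), with a 95% interval of -1.55 to -0.35. It had the smallest p of the 45 members (edgeR adjusted p = 0.294). DESeq2 placed it past the threshold, the only member it called (adjusted p = 0.0114, and 0.0114 to 0.582 across alternatives), beside 1.79% of all tested genes called higher by DESeq2, 1.66% lower and 3.45% in either direction. In counts simulated from edgeR's own estimates of spread, 65.31% of the genes that DESeq2 called were unchanged ones, against 2.67% for edgeR. There edgeR recovered 25% of the simulated doublings or halvings, and DESeq2 47%. The simulation follows edgeR's model, so it does not decide between the tools for Gins4. Leaving out each library in turn kept the log2 fold change of Gins4 between -1.12 and -0.80.

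Gins1, which encodes the Psf1 subunit, also had groups that did not overlap, at 15.3, 13.1 and 14.4 CPM in Cre+ cells, against 21.2, 22.6 and 21.0 CPM in Cre- cells. Its log2 fold change was -0.60 ± 0.30 (SE) (edgeR adjusted p = 0.688). Gins3 went the other way, at 23.1, 17.5 and 22.0 CPM in Cre+ cells, against 16.6, 10.8 and 17.7 CPM in Cre- cells, where the groups overlapped. Gins2, at 44.9, 23.9 and 33.9 CPM in Cre+ and 36.6, 32.6 and 39.3 CPM in Cre- cells, had a log2 fold change of -0.08. The 4 subunits thus had log2 fold changes of -0.95 to 0.47, beside -0.17 to 0.05 in the Mcm ring, and none of the 4 passed. Their standard errors were also larger, 0.27 to 0.33 against 0.08 to 0.13 in the ring, and their counts lower. With effective length offsets Gins1 turned to 0.05 and Gins3 to -0.37. Cdc45, the partner of GINS, had a log2 fold change of 0.19 ± 0.21 (SE). Mcm10, which helps the assembled helicase to start, had 219, 225 and 162 CPM in Cre+ cells, against 191, 208 and 219 CPM in Cre- cells, and a log2 fold change of -0.03.

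**Figure D4:**
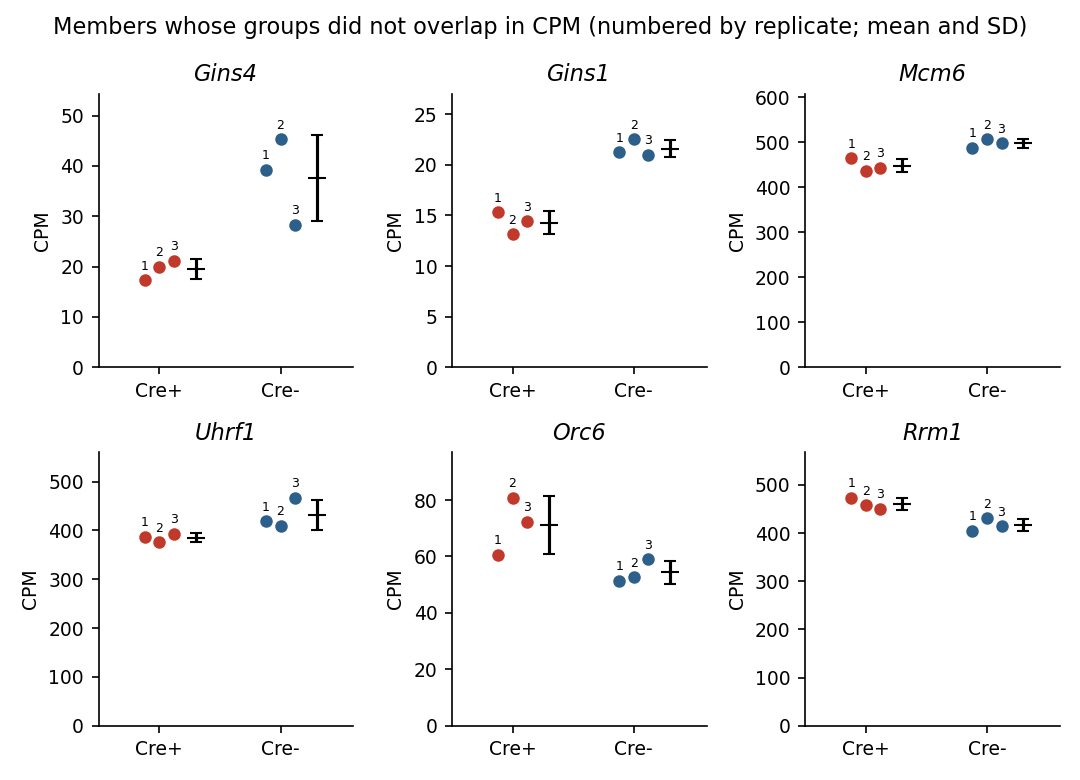
CPM by library for the 6 members whose groups did not overlap, with Cre+ at the left and Cre- at the right of each panel, numbered by replicate, and the mean and SD of 3 libraries as a bar. In CPM Gins4, Gins1, Mcm6 and Uhrf1 are lower and Orc6 and Rrm1 higher in Cre+ cells, while with effective length offsets Gins1 and Uhrf1 turn to slightly higher, and Gins4 has the lowest ratio of means, 0.518.

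Groups that did not overlap were found for 6 of 45 members, 2 higher (beside 7.53% of all tested genes) and 4 lower (beside 7.66%) in Cre+ cells, against a background of 15.2% in either direction. The members' count is therefore close to the background. Besides Orc6, Mcm6, Gins4 and Gins1 these were Rrm1 and Uhrf1.

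The polymerase and primase genes, 6 members, had no call and, in CPM, no gene whose groups stood apart. Prim2, the large primase subunit, had the smallest p, at 144, 122 and 102 CPM in Cre+ cells, against 102, 95.1 and 103 CPM in Cre- cells. Its log2 fold change was 0.29 ± 0.15 (SE) (edgeR adjusted p = 0.702), and Cre+ replicate 1 was the highest library. Pola2, the regulatory subunit of the priming polymerase alpha, had the highest mean TPM of the group, 114 ± 7.29 TPM in Cre+ and 115 ± 4.23 TPM in Cre- cells (SD, n = 3 each). The catalytic subunits Pola1, Pold1 and Pole, which start, lag and lead the copying, had log2 fold changes of -0.12, 0.00 and 0.01. Across the alternatives these ran from -0.17 to -0.03, from -0.37 to 0.05 and from -0.06 to 0.76. In TPM the groups of Pole stood apart, at 38.4, 72.8 and 40.4 in Cre+ and 24.2, 30.9 and 36.3 in Cre- cells.

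The clamp, clamp loader and single-strand binding genes, 8 members, had no call, and no groups stood apart. Pcna, the sliding clamp, measured 155, 189 and 225 CPM in Cre+ cells, against 204, 191 and 176 CPM in Cre- cells. The groups overlapped fully, with a log2 fold change of 0.00 ± 0.14 (SE) and a 95% interval of -0.33 to 0.32 (edgeR adjusted p = 0.999). Scaled by length, Pcna had a log2 fold change of -0.235 ± 0.184 (SE) with effective length offsets and -0.273 ± 0.189 (SE) on log2(TPM + 1). The loader subunits Rfc1 to Rfc5 had log2 fold changes from -0.20 for Rfc5, which had the smallest p of the group, to 0.16 for Rfc3. Rfc5 measured 88.9, 69.1 and 68.7 CPM in Cre+ cells, against 100.8, 82.2 and 77.7 CPM in Cre- cells (edgeR adjusted p = 0.918). Rpa1 and Rpa2, subunits of the complex that coats exposed single strands, had log2 fold changes of 0.05 and 0.00.

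On the lagging strand, Lig1 had a log2 fold change of -0.18 ± 0.11 (SE) (edgeR adjusted p = 0.822). It stood at 333, 363 and 358 CPM in Cre+ cells, against 334, 435 and 427 CPM in Cre- cells, and Cre- replicate 1 lay among the Cre+ libraries. Fen1, the nuclease that trims fragment ends before ligation, had a log2 fold change of -0.04.

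All 3 nucleotide supply genes had positive values and none passed, and the sign of Rrm2 turned without Cre+ replicate 1 (-0.14) or Cre- replicate 3 (-0.09). Rrm1, the large subunit of ribonucleotide reductase (ENSMUSG00000030978), measured 474, 458 and 451 CPM in Cre+ cells, against 405, 431 and 414 CPM in Cre- cells. The groups did not overlap, and the log2 fold change was 0.14 ± 0.08 (SE) (edgeR adjusted p = 0.738). Rrm2, the S phase subunit of the same enzyme, ranged widely in both groups, at 299, 186 and 226 CPM in Cre+ and 255, 248 and 179 CPM in Cre- cells. Tyms, which makes thymidylate, had a log2 fold change of 0.22 ± 0.17 (SE).

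The 5 S phase regulators had no call. Uhrf1, which carries DNA methylation through replication (ENSMUSG00000001228), measured 387, 375 and 393 CPM in Cre+ cells, against 419, 410.0 and 467 CPM in Cre- cells. The groups did not overlap, with a log2 fold change of -0.17 ± 0.09 (SE) (edgeR adjusted p = 0.709). Scaled by length the direction turned, with 0.09 under effective length offsets and 163 ± 19.3 TPM in Cre+ against 157 ± 11.3 TPM in Cre- cells (SD, n = 3 each). Slbp, the histone mRNA binding protein, had the highest mean TPM of the group, 214 ± 28.7 TPM in Cre+ and 235 ± 41.5 TPM in Cre- cells (SD, n = 3 each), and a log2 fold change of -0.18. Dtl, which directs Cdt1 to destruction in S phase, had a log2 fold change of 0.03.

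The E-type cyclins, which drive the entry into S phase with Cdk2, varied widely among replicates. Ccne1 measured 102, 90.7 and 68.0 CPM in Cre+ cells, against 98.8, 113 and 41.5 CPM in Cre- cells, the widest within-group SD of the members (0.595 in log2 CPM). Ccne2 measured 16.7, 21.4 and 17.8 CPM in Cre+ cells, against 31.1, 32.1 and 13.8 CPM in Cre- cells. Replicate 3 was the lowest Cre- library for both cyclins. The log2 fold changes were 0.04 for Ccne1 and -0.46 for Ccne2, with standard errors of 0.32 and 0.37. Without Cre- replicate 3 they were -0.29 for Ccne1 and -0.77 for Ccne2, and without Cre- replicate 2 they were 0.31 and -0.27. Leaving out Cre+ replicate 1 also turned the sign of Ccne1, to -0.09, and effective length offsets gave -1.22 for Ccne2. Cdkn1a, the p21 inhibitor of cyclin E complexes, had 63.0, 56.0 and 56.6 CPM in the Cre+ libraries and 0 counts in each Cre- library, and it rose past the threshold (edgeR adjusted p = 0.000111).

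Genes of the same pathway outside the list were also without a call. Of 27 other replisome genes and 26 other S phase genes all were tested and 0 passed in either direction (edgeR). Over all tested genes the share that passed was 0.122%, all higher, so counts of 0 are near that share. At an unadjusted p under 0.05 (edgeR), 1 replisome gene was higher (Dbf4, beside 4.05% of all tested genes). At that cut 3 S phase genes were lower (Cdca5, Skp2 and Hells, beside 4.19%). Groups did not overlap for 3 replisome genes higher and 2 lower, and for 0 S phase genes higher and 4 lower. Over all tested genes such groups made up 7.53% higher and 7.66% lower. The median log2 fold change was -0.01 for the first list and -0.03 for the second. Dbf4, the activating partner of the Cdc7 kinase that fires origins, had the smallest p of the replisome genes. It measured 97.4, 86.1 and 90.4 CPM in Cre+ cells, against 63.0, 67.5 and 63.4 CPM in Cre- cells, and the groups stood clearly apart. The log2 fold change of Dbf4 was 0.50 ± 0.14 (SE) (edgeR adjusted p = 0.289), and DESeq2 placed it past the threshold (adjusted p = 0.0132, and 0.0132 to 0.653 across alternatives). DESeq2 called 1.79% of all tested genes higher. Tipin, a fork protection factor, was next at 79.2, 93.2 and 81.1 CPM in Cre+ cells, against 74.4, 69.6 and 62.3 CPM in Cre- cells. Its log2 fold change was 0.30 ± 0.15 (SE) (edgeR adjusted p = 0.704). Scaled by length it was 0.04 with effective length offsets and -0.04 on log2(TPM + 1).

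Among the other S phase genes Cdca5, the cohesion factor sororin, measured 23.6, 25.1 and 13.1 CPM in Cre+ cells, against 42.8, 40.03 and 33.5 CPM in Cre- cells. Its log2 fold change was -0.91 ± 0.30 (SE) (edgeR adjusted p = 0.393), and DESeq2 placed it past the threshold (adjusted p = 0.0386, and 0.0386 to 0.619 across alternatives). DESeq2 called 1.66% of all tested genes lower. Skp2, the ubiquitin ligase subunit that removes Cdk inhibitors, measured 29.0, 35.7 and 34.9 CPM in Cre+ cells, against 44.4, 46.8 and 49.6 CPM in Cre- cells. Its groups did not overlap, with a log2 fold change of -0.50 ± 0.20 (SE) (edgeR adjusted p = 0.534).

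Counts and length-scaled values differed for some members. TPM divides a gene's reads by a transcript length that RSEM estimates in each library, and that length varied 1.5 times or more between libraries for 13 of 45 members, beside 39.2% of all tested genes. Mcm2 held steady in CPM, at 393, 336 and 351 in Cre+ and 338, 341 and 369 in Cre- cells. In TPM it spanned 141, 240 and 216 in Cre+ and 231, 427 and 153 in Cre- cells, since its deposited length ranged from 1160 to 3373 bases. TPM varied 2 times or more between libraries for 15 members, and CPM for 6.

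The deposited mean length differed by at least 5% between some pair of libraries for 39 members, and for 6 of these the groups did not overlap, beside 8.9% of the tested genes whose length varied as much. Gins3 transcripts averaged 2519, 2519 and 2364 bases in Cre+ cells, against 1448, 1503 and 1617 bases in Cre- cells. Gins1 transcripts averaged 892, 722 and 778 bases in Cre+ cells, against 1087 bases in each Cre- library. Pole, the leading-strand polymerase, averaged 4834, 2923 and 4679 bases in Cre+ cells, against 7017, 5702 and 6373 bases in Cre- cells. Orc1, Cdc45 and Ccne2 were the other members of this kind, all with longer averages in Cre+ cells. These lengths are model estimates and were not tested.

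Scaling by length moved the same genes. With effective length offsets the log2 fold change of Gins3 turned to -0.37 and that of Gins1 to 0.05, while that of Pole became 0.76. Gins4 has the same deposited length, 1349 bases, in all 6 libraries, and its mean of 21.2 ± 2.40 TPM in Cre+ and 41.8 ± 8.81 TPM in Cre- cells (SD, n = 3 each) repeats the CPM difference. The median log2 fold change of the members was -0.12 with these offsets and -0.15 on log2(TPM + 1) (limma), and no member was called by either. Summed TPM of the 45 members was 4171, 4416 and 4359 in Cre+ cells, against 4428, 5036 and 4370 in Cre- cells, and the groups overlapped. The difference of means was -296 TPM, and -83.8 TPM without Cre- replicate 2, the highest library. The ratio of mean summed TPM was 0.936, and that of mean summed CPM was 0.968.

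**Figure D5:**
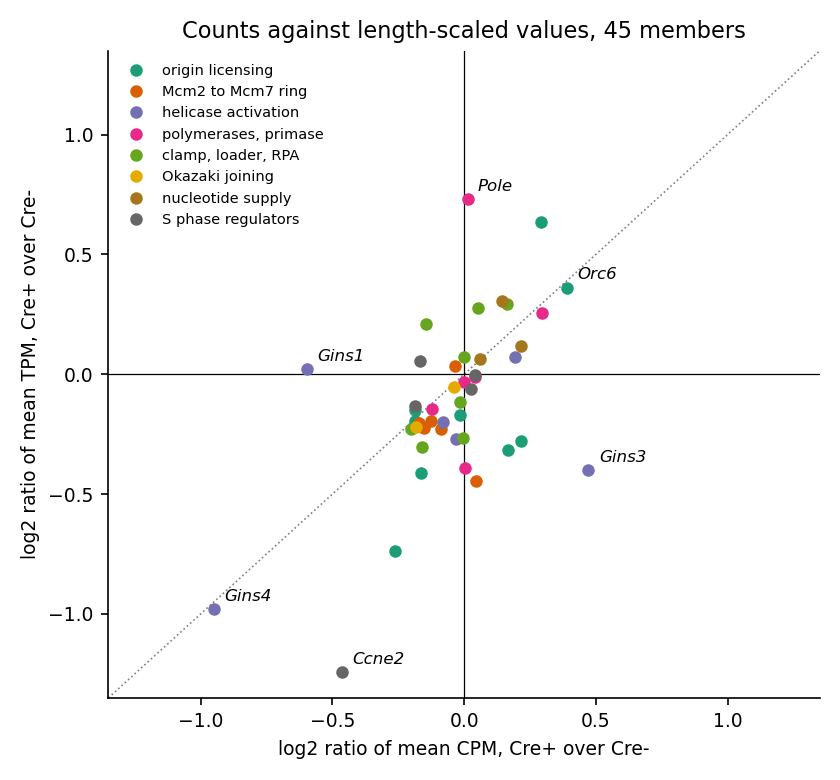
The log2 ratio of mean CPM (x axis) against that of mean TPM (y axis), Cre+ over Cre-, for 45 members coloured by role, with a dotted line where both are equal. Gins3, Ccne2, Gins1 and Pole lie more than 0.5 off the line, 13 members have opposite signs on the axes, and Gins4 and Orc6 lie near the line.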

How the data were processed

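Total RNA of 6 libraries was sequenced after preparation with Takara's SMARTer Stranded Pico kit, per the labels' protocols. Tools listed are STAR 2.5.3a and RSEM 1.3.0 on GRCm39 (mm39), per the submitters' processing notes, while the annotation release and the strand setting of the counting were not given in the sources used here. The deposited tables hold an expected count per gene, the reads that RSEM's model assigns to it, per the file headers. They also hold TPM and FPKM, which the authors' RSEM run scaled by effective length and by the library's total, and the mean transcript length. FPKM was not used.

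Expected counts were rounded to whole numbers (2.64% were not whole) and tested over 13117 genes kept by filterByExpr, with TMM factors, in edgeR 4.0.16 (R 4.3.3), with Benjamini-Hochberg adjustment. Alternatives used limma 3.58.1 and DESeq2 1.42.0. A standard error is the log2 fold change over the square root of F, and 95% intervals use the t distribution with edgeR's degrees of freedom. A gene seen in 1 library only had a median of 108 reads there, so reads are not independent molecules. Of 55359 entries 52081 matched a symbol. The labels do not say whether the replicate numbers mark litters, so the test as designed has no block. The scripts were tested on simulated data.

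The members and gene lists were chosen with earlier results of these data known. Named were Exosc3, in each role the members with the smallest p and the highest mean TPM and those with an unadjusted p under 0.05, and in each other list the 2 genes with the smallest p. Other genes were named after their values were seen. Exons of 17 of the 45 members overlap another gene in GENCODE M21, among them Gins2, Ccne2, Mcm7 and Orc6. That annotation is on GRCm38, not the build of the files, and served for exon overlaps, their strands and their lengths. The counts of these 17 members are uncertain without the strand setting.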

Additional observations from a re-analysis of the deposited data

How the results depend on the processing

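No member passed the threshold, in either direction, under any alternative but DESeq2, which called 0 members higher and 1 lower (Gins4). Among the 73 other replication, S phase and mitosis genes it called 1 higher (Dbf4) and 2 lower (Aurkb and Cdca5), against 0 in the test as designed. Over all tested genes DESeq2 called 1.79% higher, 1.66% lower and 3.45% in either direction, so these counts are near its background. DESeq2 also gave the one call of Exosc3 (adjusted p = 0.00325). The median log2 fold change of the members moved from -0.0154 to -0.116 with effective length offsets and to -0.145 by limma-trend on log2(TPM + 1), both of which scale by transcript length. Leaving out each library in turn gave medians of -0.0711 (without Cre- replicate 1) to -0.00512 (without Cre- replicate 2), and differences in summed TPM of -417 to -83.8. Over 675 member values under the alternatives 70 had the sign opposite to that in the test as designed, which called no member. Over all genes, calls numbered 16 higher and 0 lower as designed, 235 and 218 by DESeq2, 33 and 6 with no filter, 58 and 26 at a mean of at least 1000 counts, 6 and 0 with length offsets, 8 and 0 on log2(TPM + 1), and 7 to 15 higher and 0 to 3 lower with a library left out. With the replicate block edgeR called 38 higher and 18 lower of 13117 genes but 0 members, whose median was -0.0182. Same-numbered libraries deviated together only weakly (correlations of 0.026, 0.0489 and 0.0701), though each library correlated best with its own number, a hint from the data and not from the design. Alternative scalings for the separation counts were chosen after seeing the data. In TPM the separated members were again 2 higher and 4 lower, but with Pole, Orc3 and Mcm3 in place of Rrm1, Gins1 and Uhrf1. In the test as designed the intervals of 4 members (Gins1, Gins3, Gins4 and Ccne2) reach a doubling or a halving. The part of depth in this was not tested.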

Other observations

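Genes of G2 and mitosis, the phases after replication, were measured in the same cells. Of these 20 genes 0 passed (edgeR), beside 0.122% of all tested genes, all higher. Their log2 fold changes lay above 0 for 8 and below 0 for 12, with a median of -0.05. At an unadjusted p under 0.05 (edgeR) 3 were higher (beside 4.05% of all tested genes) and 2 lower (beside 4.19%). Groups that did not overlap numbered 3 higher (beside 7.53%) and 3 lower (beside 7.66%). Aurkb, the kinase of the chromosomal passenger complex, measured 58.8, 57.8 and 54.8 CPM in Cre+ cells, against 77.5, 82.2 and 80.9 CPM in Cre- cells. The groups stood apart with little spread, and the log2 fold change was -0.49 ± 0.14 (SE) (edgeR adjusted p = 0.316). DESeq2 placed Aurkb past the threshold (adjusted p = 0.0219, and 0.0219 to 0.595 across alternatives), beside 1.66% of all tested genes that it called lower. Cenpe, a kinetochore motor, measured 422, 424 and 454 CPM in Cre+ cells, against 389, 362 and 365 CPM in Cre- cells, with a log2 fold change of 0.22 ± 0.08 (SE) (edgeR adjusted p = 0.478). Mki67 and Hmmr, named after their values were seen, also lay higher in every Cre+ library, with log2 fold changes of 0.18 and 0.26. Birc5, another passenger complex gene, and Bub1b, both named in the same way, lay lower in every Cre+ library, at -0.34 and -0.21.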
